A study of Homo sapiens with 6 samples.

Results

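The thioredoxin-interacting protein gene TXNIP, the alpha-arrestin genes ARRDC1 to ARRDC4 and the 3 genes of the Mlx branch of glucose-sensing transcription factors, MLXIP (which encodes MondoA), MLXIPL (ChREBP) and MLX, were examined in DU145 cells with and without RCC2 knockdown. DU145 is an established human prostate cancer line, and RCC2 encodes a protein with RCC1-type repeats that acts on chromosomes and small GTPases. The 8 genes were chosen by name, with the large difference in TXNIP between the groups already known, and all 8 of 8 had a row among the 50868 genes of the count tables and enough reads to be among the 16536 genes tested. The samples were 3 libraries of cells given a control siRNA (siCtrl, genotype RCC2 wild type) and 3 of cells given an siRNA against RCC2 (siRCC2, genotype RCC2 knockdown). Both groups were the same line and carried an siRNA. The labels name no siRNA sequence or dose, no time after transfection and no glucose concentration. They also leave unsaid whether replicates were grown as separate cultures, so p-values measure only how much these libraries vary, and that variation may be technical.

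MondoA and ChREBP bind DNA as dimers with Mlx. They move into the nucleus when glucose 6-phosphate builds up, and they switch on genes through carbohydrate response elements, which are pairs of E-box-like motifs a few bases apart. TXNIP and ARRDC4 are known as direct targets of MondoA, and the products of both hold back glucose uptake. TXNIP also binds and inhibits thioredoxin. The alpha-arrestins share the arrestin fold with the beta-arrestins, carry PPxY motifs and bring ubiquitin ligases of the NEDD4 family to membrane proteins.

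Total counts ran from 17377191 to 19895431 per library, so that a level of 1 CPM (the read count scaled to library size) was about 17 to 20 reads. RCC2 itself was at 198, 194 and 191 CPM in siCtrl replicates 1 to 3 and at 59.3, 57.6 and 54.8 CPM in siRCC2 replicates 1 to 3, lower in each knockdown library. The epithelial markers KRT8, KRT18, EPCAM and CDH1 were present in all libraries, with a sum of 863 to 885 CPM in siCtrl and 1240 to 1380 CPM in siRCC2. KRT8, KRT18 and CDH1 were higher in siRCC2. EPCAM was lower, with 302, 307 and 282 counts in siCtrl and 162, 215 and 230 in siRCC2. Summed levels were 3.56 to 3.82 CPM in siCtrl and 1.89 to 3.30 CPM in siRCC2 for 3 leukocyte markers. Of these, CD3E was at 0 throughout and PTPRC had 1 count in siRCC2 replicate 2 and 0 elsewhere, so the sum was nearly all CD14. The sums were 13.0 to 15.5 and 9.73 to 13.0 CPM for 3 stroma markers and 0.309 to 0.808 and 0.262 to 0.67 CPM for 3 endothelial markers. The part of these markers in the results that follow was not tested. No pair of replicates looked like 1 library deposited again, as chi-square divided by its degrees of freedom was 10.2 to 34.3 within groups.

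As the genes were chosen with this comparison in view, their differences between the groups are described and no test is read from them. In the fit across all genes 4 of the 8 lay past the threshold (edgeR quasi-likelihood test, Benjamini-Hochberg adjusted p under 0.05) with a higher level in siRCC2 and 2 with a lower level. Of all genes tested, 41.8% lay past it, 20.7% higher and 21.1% lower. For 7 of the 8 there was no overlap between siCtrl and siRCC2 values, 5 higher and 2 lower in siRCC2, which was so for 55.4% of all genes tested (26.9% higher and 28.5% lower). In bulk RNA, a smaller part of cells with a transcript and less of it per cell cannot be told apart. CPM values are scaled by TMM, and errors of levels are SD over 3 libraries.

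**Figure D1:**
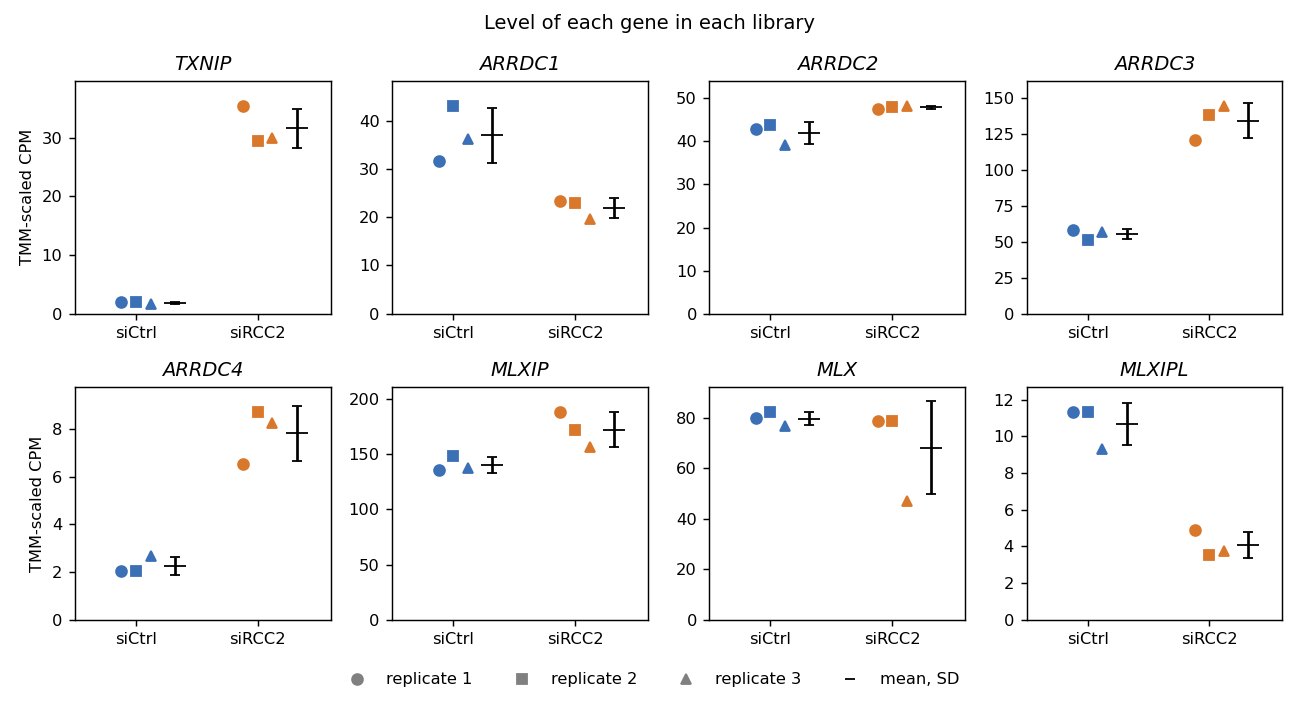
Level of each of the 8 genes in TMM-scaled CPM on a linear axis from 0, by library, with siCtrl in blue and siRCC2 in orange. Symbols mark the replicate, and the black bars beside them give the mean and SD of 3 libraries. TXNIP lies at 1.65 to 1.98 CPM in siCtrl and 29.4 to 35.4 CPM in siRCC2, and MLX is the gene whose groups overlap.

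TXNIP (ENSG00000265972) lies on GRCh38 chromosome 1 from 145992435 to 145996600 on the minus strand, and no other gene in the tables overlaps it. Its counts were 40, 36 and 32 in the siCtrl libraries, in order of replicate, against 586, 570 and 573 after knockdown. These are levels of 1.98, 1.94 and 1.65 CPM against 35.4, 29.4 and 30.0 CPM. All knockdown libraries were far above all control libraries, and the lowest of them was 14.8 times the highest control. The mean went from 1.86 ± 0.182 to 31.6 ± 3.32 CPM, 17-fold, or 4.08 ± 0.14 (SE) on the log2 scale. That was the 8th highest log2 fold change of the 16536 genes tested. The spread within each group was small, with a coefficient of variation of 9.82% in siCtrl and 10.5% in siRCC2. None of the 50-base stretches of its longest annotated transcript occurs in transcripts of another annotated gene.

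The sequence before the main TXNIP start is shown because it holds the kind of element through which MondoA is known to act. It is the 250 bases before the RefSeq start on GRCh38.p14 (chr1:145996580-145996829, minus strand), printed 5′ to 3′. Capitals mark each CCAAT motif (on either strand) and both members of a CACGAG pair, which are 5 bases apart.
TXNIP: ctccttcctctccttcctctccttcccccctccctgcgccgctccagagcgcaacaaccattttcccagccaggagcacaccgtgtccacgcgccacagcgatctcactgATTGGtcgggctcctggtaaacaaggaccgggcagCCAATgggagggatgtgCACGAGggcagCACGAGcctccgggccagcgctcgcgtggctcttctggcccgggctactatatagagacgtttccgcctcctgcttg
The pair begins 88 bases before the start, with a CCAAT motif beginning 105 bases before it on the printed strand and another, read as ATTGG on the printed strand, beginning 140 bases before it. CACGAG differs from the E-box CACGTG at 1 base. Neither TXNIP window holds a match to the published consensus of the carbohydrate response element. The pair, searched as CACGAG, any 5 bases and CACGAG on both strands after the TXNIP window had been read, occurs in 2 of the 34796 promoter windows in the RefSeq table (0.00575%), each of 300 bases, from 250 bases before a start to 50 after it. The other window belongs to KCTD5, which encodes an adaptor of a cullin ubiquitin ligase, with the pair CTCGTGcaccgCTCGTG (chr16:2682290-2682306) beginning 233 bases before its start. KCTD5 was at 55.7, 55.1 and 54.6 CPM in siCtrl and 31.6, 34.6 and 35.6 CPM in siRCC2, so it was lower where TXNIP was higher (log2 fold change -0.70 ± 0.08, edgeR adjusted p = 0.000725).

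ARRDC4 (chromosome 15, 97960698 to 97973838, plus strand) is the alpha-arrestin gene closest to TXNIP in its known response to glucose. It had 41, 38 and 52 counts in siCtrl and 108, 169 and 157 in siRCC2. The levels were 2.03, 2.05 and 2.68 CPM in siCtrl against 6.53, 8.71 and 8.23 CPM in siRCC2. Each knockdown library was above each control library, and siRCC2 replicate 1, the highest for TXNIP, was the lowest of its group for ARRDC4. The mean was 2.25 ± 0.368 against 7.82 ± 1.14 CPM, 3.47-fold, or 1.79 ± 0.19 on the log2 scale. Relative to ARRDC4 per kilobase of annotated exons, TXNIP stood at 1.10, 1.06 and 0.691 in siCtrl and at 6.09, 3.79 and 4.10 in siRCC2.

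The ARRDC4 sequence is printed in the same way (chr15:97960453-97960702, plus strand), with the capitals marking CACGTG and CCAAT motifs.
ARRDC4: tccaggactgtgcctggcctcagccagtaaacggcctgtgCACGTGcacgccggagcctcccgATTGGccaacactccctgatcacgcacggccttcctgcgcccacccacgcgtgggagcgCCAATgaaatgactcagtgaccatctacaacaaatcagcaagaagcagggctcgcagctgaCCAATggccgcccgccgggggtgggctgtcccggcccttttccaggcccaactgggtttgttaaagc
It holds an E-box CACGTG beginning 210 bases before the start and 3 CCAAT motifs, at 187, 128 and 67 bases before it. CACGTG on its own occurs in 7.20% of all windows and CCAAT in 34.6%. The window holds no CACGAG pair and no match to the published consensus of the carbohydrate response element, which was found in 31 of all windows (0.0891%) and in none of those of the 8 genes. A wider search for any pair of 6-base motifs that each differ from CACGTG at 1 base at most, 5 bases apart, found 148 windows (0.425%), and of the 8 genes TXNIP alone had one.

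ARRDC3 (chromosome 5, 91368724 to 91383359, minus strand) encodes an adaptor known for sending integrin beta4 to degradation, and it is described as a suppressor of invasion in breast cancer. It had 1171, 953 and 1101 counts in siCtrl and 1990, 2671 and 2750 in siRCC2. The levels were 58.1, 51.4 and 56.7 CPM against 120.3, 138 and 144 CPM, with no overlap and the lowest knockdown library again replicate 1. The mean was 55.4 ± 3.57 CPM in siCtrl and 134 ± 12.3 CPM in siRCC2, 2.42-fold, or 1.27 ± 0.09 on the log2 scale. Of all genes tested it had the 481st highest log2 fold change. ARRDC3-AS1, an antisense gene that overlaps ARRDC3 by 3011 bases, had 7 to 13 counts in siCtrl and 5 to 10 in siRCC2.

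The ARRDC3 sequence is printed for comparison with those of the other genes with a higher level (chr5:91383318-91383567, minus strand).
ARRDC3: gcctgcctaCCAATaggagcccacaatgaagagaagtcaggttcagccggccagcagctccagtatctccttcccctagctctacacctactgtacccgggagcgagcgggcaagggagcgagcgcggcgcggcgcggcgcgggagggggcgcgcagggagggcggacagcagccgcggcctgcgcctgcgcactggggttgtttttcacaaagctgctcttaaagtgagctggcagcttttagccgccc
It holds a CCAAT motif beginning 241 bases before the start and no CACGTG or pair, and the window at the other RefSeq start of ARRDC3 holds none of the motifs searched. The map of motifs in the promoter windows shows all 8 genes, of which TXNIP, ARRDC2 and ARRDC3 have 2 windows each.

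**Figure D2:**
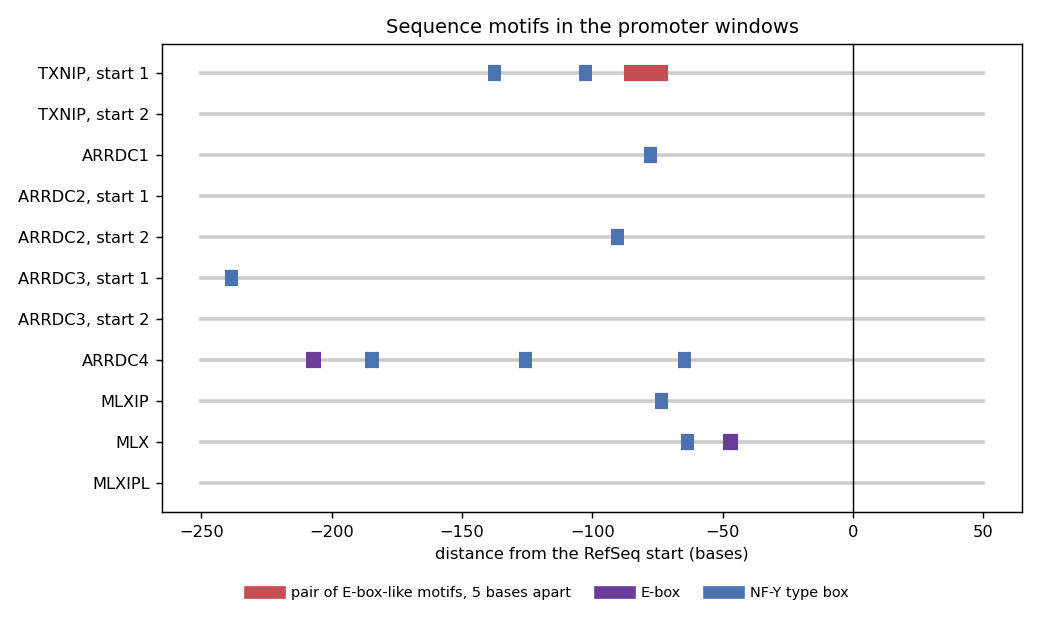
Motifs found in the 11 promoter windows of the 8 genes, from 250 bases before to 50 bases after each RefSeq start, with the distance from the start on the x axis and the start at the black line. Red marks the pair of E-box-like motifs, purple the E-box and blue the NF-Y type (CCAAT) box. The red mark appears at TXNIP, and purple marks appear at ARRDC4 and MLX.

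ARRDC2 (chromosome 19, 18001132 to 18014102, plus strand), the relative of ARRDC3 whose function is less known, differed little. Its levels were 42.9, 43.9 and 39.1 CPM in siCtrl and 47.5, 48.0 and 48.2 CPM in siRCC2. The groups did not overlap, but the lowest knockdown library was only 1.08 times the highest control. The log2 fold change was 0.19 ± 0.08, and ARRDC2 lay short of the threshold in all 14 other settings tried as well.

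ARRDC1 (chromosome 9, 137605654 to 137615360, plus strand), which recruits the ESCRT protein TSG101 to the plasma membrane and drives the budding of microvesicles, was the alpha-arrestin gene with a lower level. It had 639, 799 and 704 counts in siCtrl and 387, 446 and 374 in siRCC2. The levels were 31.7, 43.1 and 36.3 CPM against 23.4, 23.0 and 19.6 CPM, with no overlap. The mean was 37.0 ± 5.71 CPM in siCtrl and 22 ± 2.08 CPM in siRCC2, a log2 fold change of -0.75 ± 0.14. The antisense gene ARRDC1-AS1 shares 29 bases with the end of ARRDC1 and was at 21.2 ± 2.22 CPM in siCtrl and 15.8 ± 2.90 CPM in siRCC2 (log2 fold change -0.43 ± 0.16, edgeR adjusted p = 0.0688). No source used here says whether the counting used strand, so reads from the shared bases cannot be told apart.

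Added up per kilobase of annotated exons, the 5 alpha-arrestin genes came to 30.4, 32.2 and 30.5 CPM per kb in siCtrl and 52.1, 54.5 and 55.1 CPM per kb in siRCC2. ARRDC3 made up 32.3 to 38.8% in siCtrl and 46.8 to 53.1% in siRCC2, the largest share in every library but siCtrl replicate 2, in which ARRDC1 had more. TXNIP made up 1.49 to 1.80% in siCtrl and 14.9 to 18.7% in siRCC2, more than ARRDC1 in every knockdown library. The share of ARRDC1 was 31.1 ± 3.85% in siCtrl and 10.7 ± 1.25% in siRCC2, and that of ARRDC2 29.2 ± 1.46% and 19.2 ± 0.418%. ARRDC4 stayed a minor part, at 1.56 to 2.16% and 3.08 to 3.92%. A further human alpha-arrestin gene, ARRDC5, had 1 count in siCtrl replicate 1 and 0 in the other libraries.

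**Figure D3:**
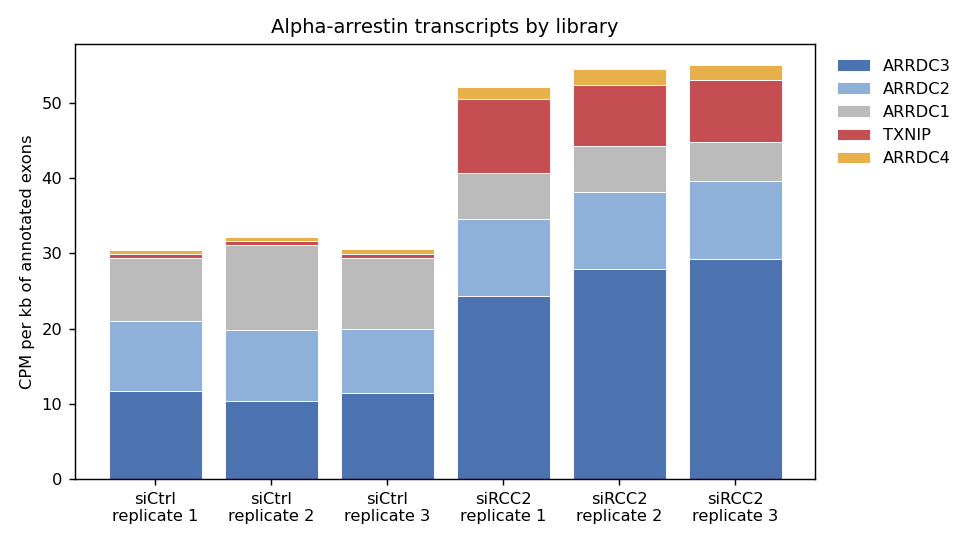
Level of the 5 alpha-arrestin genes in each library, stacked, in CPM per kb of annotated exons (the union of all annotated exons of a gene). The sum is 30.4 to 32.2 in siCtrl and 52.1 to 55.1 in siRCC2, and the red part, TXNIP, widens from 1.65 ± 0.157% to 16.2 ± 2.19% of it.

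MLXIP (chromosome 12, 122078722 to 122147347, plus strand), the gene of MondoA itself, differed by little. It was at 135, 149 and 138 CPM in siCtrl and 188, 172 and 156 CPM in siRCC2. The groups lay close together without overlap, the lowest knockdown library being 1.05 times the highest control. The log2 fold change was 0.29 ± 0.09, and it lay past the threshold with all 6 libraries but short of it in 8 of 14 other settings. Without siRCC2 replicate 1 it was 0.21, and without each siCtrl library or siRCC2 replicate 2 in turn MLXIP also lay short of the threshold.

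MLXIPL (chromosome 7, 73593194 to 73624543, minus strand), the gene of ChREBP, which in liver and fat drives the enzymes of lipid synthesis, was lower after knockdown. It had 228, 210 and 181 counts in siCtrl and 81, 69 and 72 in siRCC2, or 11.3, 11.3 and 9.33 CPM against 4.90, 3.55 and 3.77 CPM. The lowest control library was 1.90 times the highest knockdown library. The log2 fold change was -1.39 ± 0.17. The ratio of MLXIP to MLXIPL per kb was 4.14, 4.55 and 5.11 in siCtrl and 13.3, 16.8 and 14.3 in siRCC2.

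MLX (chromosome 17, 42567068 to 42573239, plus strand), the shared partner of both, was at 80.2, 82.3 and 76.9 CPM in siCtrl. In siRCC2 it was at 79.0 and 78.8 CPM in replicates 1 and 2 and at 47.1 CPM in replicate 3. The groups overlapped, and the log2 fold change of -0.23 ± 0.19 rested on that 1 library: without siRCC2 replicate 3 it was -0.01 ± 0.07. The dispersion of MLX, a biological coefficient of variation of 17.9%, was above the 14.3% of the trend for genes of its level, while that of TXNIP, 13.8%, was below its trend of 18.1%. PSMC3IP, which overlaps the end of MLX by 925 bases on the other strand, was at 10.4 ± 0.352 CPM in siRCC2 and at 10.7 CPM in replicate 3, where it did not share the low value.

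**Figure D4:**
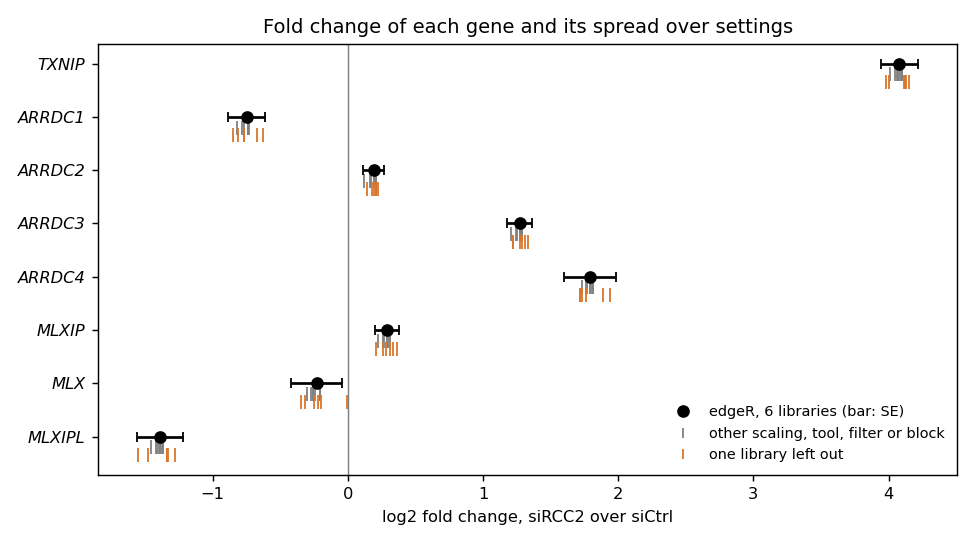
Log2 fold change of each gene, siRCC2 over siCtrl, with all 6 libraries (black points, bars give the SE), under other scalings, tools, filters or a replicate block (grey ticks) and with 1 library left out (orange ticks). TXNIP runs from 3.98 to 4.15 over the other settings, and MLX from -0.35 to -0.01.

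Per kilobase of annotated exons, which allows levels of different genes to be set side by side, MLX was the highest of the 8 in siCtrl at 18.7 ± 0.647 CPM per kb. ARRDC3 (11.2 ± 0.723), MLXIP (10.1 ± 0.518), ARRDC1 (9.69 ± 1.49) and ARRDC2 (9.05 ± 0.55) followed, and in this run each gene overlapped the next over the 3 libraries. MLXIPL stood below them at 2.21 ± 0.239 CPM per kb, and ARRDC4 (0.553 ± 0.0905) and TXNIP (0.513 ± 0.0503) came last and overlapped. In siRCC2 the order was ARRDC3 at 27.2 ± 2.50 CPM per kb, MLX at 16.0 ± 4.31, MLXIP at 12.4 ± 1.15, ARRDC2 at 10.3 ± 0.0775, TXNIP at 8.72 ± 0.917, ARRDC1 at 5.76 ± 0.544, ARRDC4 at 1.92 ± 0.281 and MLXIPL at 0.846 ± 0.150. There MLX and MLXIP overlapped, and the other neighbours did not. TXNIP thus went from the last place to the fifth, and MLXIPL from the sixth place to the last. With the longest transcript as the length, ARRDC4 in place of TXNIP was last in siCtrl, MLXIP stood above ARRDC3 there, and ARRDC3 and MLX overlapped in siRCC2.

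The genes whose pattern over the 6 libraries was most like that of TXNIP were found by the root mean square difference of centred log2(CPM + 0.5) among 13130 genes with a mean of at least 1 CPM. FBXW10 (0.412), EOMES (0.537), AKR1C2 (0.624), INSIG1 (0.626) and CDRT1 (0.629) were closest, against a median of 1.92 (log2) over all genes compared. EOMES, a T-box transcription factor, was at 0.844, 0.916 and 0.979 CPM in siCtrl and 8.34, 9.48 and 9.12 CPM in siRCC2. INSIG1, which holds the sterol sensor SCAP in the endoplasmic reticulum, was at 24.5, 22.6 and 22.7 CPM against 167, 102 and 167 CPM. Its replicate 2 thus lay far below replicates 1 and 3, while for TXNIP siRCC2 replicate 2 (29.4 CPM) was the lowest but close to replicate 3 (30.0 CPM). The values of FBXW10, CDRT1 and AKR1C2 depend on how reads were shared, since 56.9% of the 50-base stretches of FBXW10 and 75.7% of those of CDRT1 occur in transcripts of other genes, as do 52.2% of those of AKR1C2. All these genes were also far higher in siRCC2. As each gene was centred over all 6 libraries, the measure includes the difference between the groups, also for the ARRDC4 and MLXIP lists below. The lists therefore give no support apart from that difference, and how much of the likeness lies in it was not tested.

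For ARRDC4 the closest were DDAH1 (0.105), which breaks down methylated arginines, RGS2 (0.115), a regulator of G protein signalling, and MYH3 (0.117), an embryonic myosin heavy chain, against a median of 0.851. DDAH1 was at 61.0, 61.4 and 66.8 CPM in siCtrl and 157, 184 and 208 CPM in siRCC2. For MLXIP they were XKR8 (0.014), a phospholipid scramblase, the Polycomb gene CBX2 (0.015) and DDOST (0.022), a subunit of the oligosaccharyltransferase, against a median of 0.309. DDOST was at 316, 333 and 322 CPM in siCtrl and 440, 400 and 364 CPM in siRCC2, in the same order of replicates as MLXIP.

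The other genes of the pathway were read from the same fit in 9 lists, chosen with earlier results of these data known, beside all genes tested, which had a median log2 fold change of -0.02. The adjusted p-values that follow are those of edgeR over all genes.

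**Figure D5:**
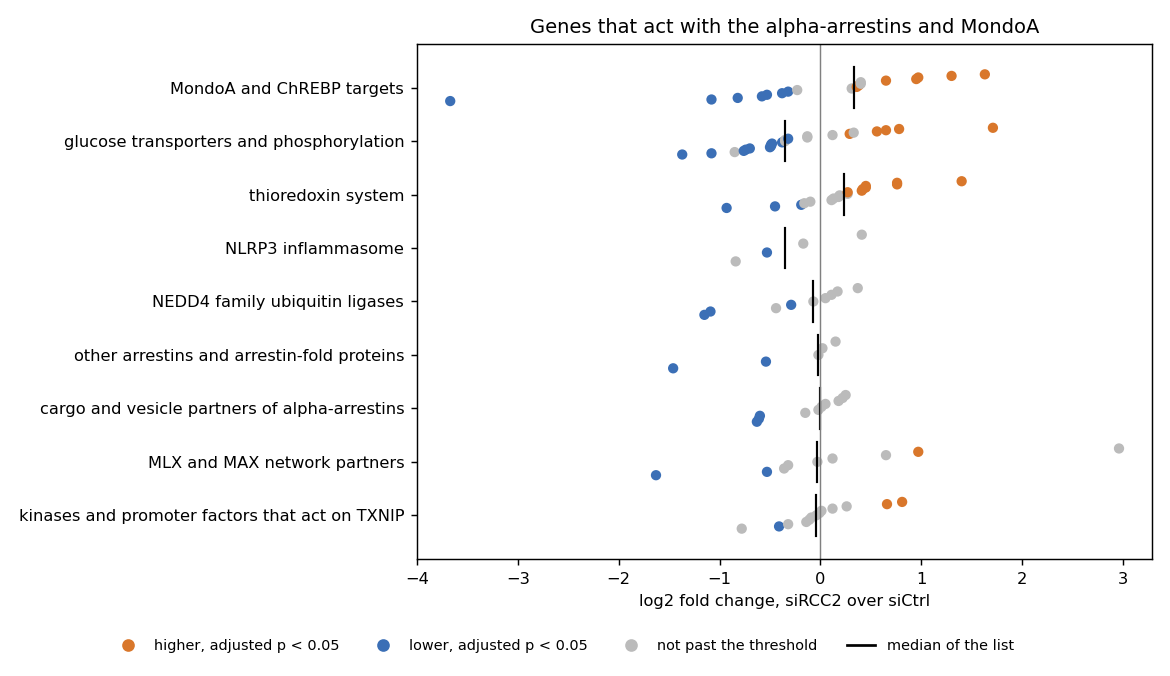
Log2 fold change, siRCC2 over siCtrl, of each tested gene in 9 lists (1 point a gene, spread vertically by rank within its list). Orange and blue points are genes past the threshold, higher and lower, grey points are the others, and the black line is the median of the list. The 18 MondoA and ChREBP targets lie on both sides of 0, from -3.67 to 1.63.

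Genes described as targets of MondoA or ChREBP, TXNIP and ARRDC4 left out, went both ways. Among the 18 tested, 7 rose and 7 fell past the threshold (77.8% past it, against 41.8% of all genes tested). The median was 0.34. FASN, the fatty acid synthase, rose from 553 ± 18.8 to 1363 ± 105 CPM (1.30 ± 0.07, adjusted p = 5.73e-05). ME1, the cytosolic malic enzyme, rose from 57.9 ± 2.44 to 112 ± 5.04 CPM (0.95 ± 0.07, adjusted p = 0.000148), and PFKFB3, which makes the glycolytic activator fructose 2,6-bisphosphate, from 87.0 ± 5.88 to 137 ± 10.4 CPM (0.65 ± 0.09, adjusted p = 0.00125). KHK, the fructokinase gene, fell from 12.7 ± 0.627 to 6.01 ± 0.901 CPM (-1.08 ± 0.14, adjusted p = 0.00129). The lowest value belonged to the hormone gene FGF21, named after its value was seen, with 17, 25 and 16 counts in siCtrl and 2, 2 and 0 in siRCC2. FASN, ME1 and other lipid genes of this list are also known targets of the sterol regulatory factors, whose part was not tested. The lipid genes went both ways. ACLY (0.38 ± 0.06, adjusted p = 0.00259) and ACACA (0.36 ± 0.06, adjusted p = 0.00367) also rose. SCD (-0.38 ± 0.06, adjusted p = 0.00287), ELOVL6 (-0.82 ± 0.18, adjusted p = 0.0102) and DGAT2 (-0.58 ± 0.13, adjusted p = 0.00985) fell. The call of DGAT2 was lost without siRCC2 replicate 2 (0.0581). PKLR, the classical ChREBP target of liver, was too low to be tested.

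The transcripts of glucose transporters and of enzymes around glucose 6-phosphate, the signal that MondoA reads, went both ways. Past the threshold 5 of 23 rose and 11 fell (69.6% past it, against 41.8% of all genes tested, 20.7% higher and 21.1% lower), and the median was -0.35. SLC2A1, the main glucose transporter, whose protein TXNIP binds and removes from the membrane, was at 477, 381 and 441 CPM in siCtrl and 310, 350 and 266 CPM in siRCC2. It fell by 0.49 ± 0.12 on the log2 scale (adjusted p = 0.0166), a call lost without siCtrl replicate 1 (0.0613) or replicate 3 (0.0556). Hexokinase 2 (HK2) went from 45.8 ± 0.912 to 36.8 ± 2.06 CPM (-0.32 ± 0.08, adjusted p = 0.0187), a call lost without siRCC2 replicate 2 or any 1 of the siCtrl libraries (0.0551 to 0.0708). The genes of glucose 6-phosphate hydrolysis and of its transport into the endoplasmic reticulum, G6PC3 (-0.70 ± 0.09, adjusted p = 0.000937) and SLC37A4 (-0.74 ± 0.09, adjusted p = 0.000733), fell together. PFKFB4, a relative of PFKFB3, rose from 19.9 ± 0.712 to 65.0 ± 7.06 CPM (1.71 ± 0.10, adjusted p = 6.99e-05), and the transporter SLC2A6 rose (0.78 ± 0.09, adjusted p = 0.00068). A further relative, PFKFB2, fell from 78.6 ± 4.60 to 46.4 ± 4.31 CPM (-0.76 ± 0.10, adjusted p = 0.000957), and PFKFB1 did not pass (adjusted p = 0.184). The count of genes that rose became 3 without siCtrl replicate 2, siCtrl replicate 3 or siRCC2 replicate 2. The count of genes that fell became 8 without siRCC2 replicate 2 or any 1 of the siCtrl libraries, and 12 without siRCC2 replicate 1 or 3.

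In the thioredoxin system 8 of 18 genes rose and 3 fell (61.1% past the threshold, against 41.8% of all genes). The median was 0.23. TXN, thioredoxin itself and the partner of TXNIP, was at 394, 378 and 385 CPM in siCtrl and 572, 495 and 484 CPM in siRCC2, with no overlap (0.42 ± 0.08, adjusted p = 0.00497). The mitochondrial thioredoxin TXN2 rose by nearly as much (0.41 ± 0.10, adjusted p = 0.0141), a call lost without siCtrl replicate 3 (0.0577). The peroxiredoxins, peroxidases of which several are recharged by thioredoxin, went both ways. PRDX1 rose (0.45 ± 0.10, adjusted p = 0.0114) and PRDX2 fell from 163 ± 17.4 to 119 ± 10.4 CPM (-0.45 ± 0.10, adjusted p = 0.0123), a call lost without siRCC2 replicate 2 (0.0696), while PRDX5 did not pass. Higher levels were also found for PRDX4, which sits in the endoplasmic reticulum, from 40.5 ± 7.004 to 107 ± 12.3 CPM (1.40 ± 0.15, adjusted p = 0.000467), and for the mitochondrial PRDX3, from 220 ± 7.36 to 300 ± 7.44 CPM (0.45 ± 0.06, adjusted p = 0.00122). PRDX6, a peroxidase that uses glutathione, rose by 0.76 ± 0.09 (adjusted p = 0.00065). NXN, nucleoredoxin, fell from 269 ± 12.2 to 141 ± 5.95 CPM (-0.93 ± 0.07, adjusted p = 0.000123). The count of genes that fell became 1 without siRCC2 replicate 2.

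Alpha-arrestins act through partner proteins. Of 9 ubiquitin ligases of the NEDD4 family 3 fell and 6 did not pass (33.3% past the threshold, against 41.8% of all genes), with a median of -0.07. ITCH, the ligase known to degrade TXNIP, was at 82.6, 84.7 and 121 CPM in siCtrl and 38.03, 52.6 and 39.2 CPM in siRCC2, lower in each knockdown library (-1.15 ± 0.19, adjusted p = 0.00305). HECW2 fell too (-1.09 ± 0.26, adjusted p = 0.0145), while HECW1 (-0.29 ± 0.09, adjusted p = 0.0332) lost its call with DESeq2 (0.0712), with a filter of at least 1 read (0.0532), and without siRCC2 replicate 2 or 3 or any 1 of the siCtrl libraries (0.0672 to 0.112). NEDD4 ranged from 63.1 to 186 CPM within siRCC2. Without siRCC2 replicate 1 WWP1 and SMURF2 also passed, as higher.

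Among 10 cargo and vesicle partners 3 fell and 7 did not pass (30.0% past the threshold, against 41.8% of all genes tested). The median was -0.01. The integrin gene ITGB4, whose product is a cargo of ARRDC3, was at 153, 174 and 149 CPM in siCtrl and 168, 158 and 144 CPM in siRCC2, with overlapping groups (-0.02 ± 0.09, adjusted p = 0.881). TSG101, the partner of ARRDC1, fell from 40.4 ± 2.03 to 26.7 ± 4.38 CPM (-0.60 ± 0.13, adjusted p = 0.00972). The iron transporter gene SLC11A2 fell (-0.63 ± 0.09, adjusted p = 0.00177), as did the insulin receptor gene INSR (-0.61 ± 0.17, adjusted p = 0.0273), whose call was lost without any 1 of the siCtrl libraries (0.0579 to 0.0913). Without siRCC2 replicate 1 VPS4B passed as higher, and without siRCC2 replicate 3 VPS4A and HGS did. Of 5 other arrestins and arrestin-fold proteins tested, 2 fell (40.0% past the threshold, against 41.8% of all genes tested). They were the retromer subunit gene VPS26B, from 118 ± 8.79 to 43.1 ± 2.13 CPM (-1.46 ± 0.09, adjusted p = 6.03e-05), and the beta-arrestin gene ARRB2 (-0.54 ± 0.16, adjusted p = 0.0295). The call of ARRB2 was lost without siRCC2 replicate 2 or any 1 of the siCtrl libraries (0.0529 to 0.094), and ARRB1 had a log2 fold change of -0.02 ± 0.16.

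Of 9 tested partners in the MLX and MAX network 1 rose, 2 fell and 6 did not pass. Past the threshold were 33.3%, against 41.8% of all genes tested, and the median was -0.03. MXD4, which dimerises with MLX as well as with MAX, rose from 162 ± 8.74 to 319 ± 27.0 CPM (0.97 ± 0.08, adjusted p = 0.000218). MNT, another repressor that can pair with MLX, fell (-0.53 ± 0.10, adjusted p = 0.00445), and MXD1 was at -0.32 ± 0.18 on the log2 scale (adjusted p = 0.197, and 0.0402 without siCtrl replicate 1). MYCL fell from 9.16 ± 0.352 to 2.97 ± 0.556 CPM (-1.63 ± 0.17, adjusted p = 0.000448). MYC was at 3.03 to 3.71 CPM in siCtrl and at 8.04, 3.04 and 67.5 CPM in siRCC2 replicates 1 to 3 (adjusted p = 0.0608, 0.0302 with DESeq2, and 0.0374 and 0.0173 without siRCC2 replicates 1 and 2). Its high value was in the library in which MLX was low. Without siCtrl replicate 2 MXI1 passed as well (0.0482).

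Of 13 kinases and promoter factors known to act on TXNIP 2 rose, 1 fell and 10 did not pass. Past the threshold were 23.1%, against 41.8% of all genes tested, and the median was -0.04. AKT1, a kinase that phosphorylates TXNIP, rose from 141 ± 11.8 to 223 ± 17.7 CPM (0.66 ± 0.09, adjusted p = 0.00139), and FOXO4 rose from 9.75 ± 1.00 to 17.1 ± 1.63 CPM (0.81 ± 0.13, adjusted p = 0.00284). NFYA, a subunit of the factor that binds CCAAT motifs, fell (-0.41 ± 0.09, adjusted p = 0.00854). PRKAA2, a catalytic subunit of the energy sensor AMPK, was at -0.78 ± 0.28 on the log2 scale (adjusted p = 0.0626). It passed with upper quartile scaling (0.0493), DESeq2 (0.0169) and limma-voom (0.0409), and without siRCC2 replicate 1 (0.0296) or 3 (0.0137). In the NLRP3 inflammasome, to which TXNIP is reported to bind, NLRP3 was at 0 to 0.258 CPM and IL1B had 0 counts in every library. Of the 4 genes tested there 1 passed, as lower, against 41.8% of all genes tested past the threshold, 21.1% as lower. With 4 genes the shares can hardly be compared, and the difference was not tested. The gene was GSDMD, the pore-forming gasdermin D (-0.53 ± 0.17, adjusted p = 0.0411). Its call was lost without siRCC2 replicate 2 or 3 or any 1 of the siCtrl libraries (0.0531 to 0.143). It was also lost with DESeq2 size factors (0.0557) and with a filter of a mean of at least 1 CPM (0.0551). IL18, NEK7 and PYCARD did not pass, though NEK7 passed as higher without siRCC2 replicate 1 (0.00716).

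Genes with the wider kind of pair of E-box-like motifs went both ways. Of 78 tested genes other than TXNIP with such a pair in a promoter window, 20 rose, 19 fell and 39 did not pass, with a median of 0.01. These shares lie near the 20.7% higher and 21.1% lower of all genes tested. Of 14 tested genes with a match to the consensus of the carbohydrate response element, 4 rose, 6 fell and 4 did not pass. Both shares were above the 20.7% higher and 21.1% lower of all genes tested, but 14 genes are few and the difference was not tested. A match to the letters of a motif is a description of the sequence, and binding was not measured.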

How the data were processed

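RNA sequencing was done on 6 DU145 libraries, 3 siCtrl and 3 siRCC2, grouped by the sample titles. The authors deposited whole-number counts per gene, 1 table per library. Bowtie2, RSEM, DESeq2 and the build GRCh38 are named per the submitters' processing notes. The RSEM estimates may have been rounded before deposit, and RSEM divides reads among genes with like sequence.

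Genes were kept by filterByExpr, scaled by TMM and tested in R 4.3.3 with the quasi-likelihood test of edgeR 4.0.16 at a Benjamini-Hochberg adjusted p under 0.05. Fold changes are siRCC2 over siCtrl, and their SE was taken from the F statistic as the absolute log2 fold change over its square root. Alternatives were 3 other scalings, DESeq2 1.42.0, limma-voom (limma 3.58.1), 2 other filters, a stricter threshold, a replicate block and leaving out each library.

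Exon lengths and overlaps came from GENCODE release 29 on GRCh38 (98.5% of identifiers matched, all 8 genes at identical coordinates). Promoter sequences came from RefSeq (GRCh38.p14). Protein sequences were not used here, and some marker and cargo genes are not reported here. The members and lists were chosen with earlier results of these data known. Named genes are the 8, up to 4 of each list with the smallest p, known binding partners of the 8, and the genes most like TXNIP (5), ARRDC4 (3) and MLXIP (3). The CACGAG pair, the wider pair and KCTD5 were added after the TXNIP promoter had been read. PRDX1, PRDX2, PRDX5, ACLY, ACACA, SCD, ELOVL6, DGAT2, PFKFB1 and PFKFB2 were named after their values were seen.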

Additional observations from a re-analysis of the deposited data

How the results depend on the processing

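The directions of all 8 genes were kept in all 14 other settings. With all 6 libraries 6 of the 8 lay past the threshold, and 5 or 6 did in each other setting, MLXIP being the gene that varied. At an adjusted p under 0.01, 4117 genes in all passed in place of 6911. Same-numbered libraries deviated together with correlations of 0.0768, -0.0404 and 0.125, so the replicate numbers were not taken to pair the samples, and siRCC2 replicate 2 did not correlate best with its own number. With the replicate block 6295 genes passed, and 5 of the 8, and HECW1 did not (0.0752). Ligases that fell numbered 2 with the block, with DESeq2 and in 5 of the 6 fits with 1 library left out. Leaving out 1 library gave 5112 to 7565 genes.

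With the longest transcript as the length, levels in siCtrl and siRCC2 were 0.635 and 10.8 CPM per kb for TXNIP, 11.6 and 6.91 for ARRDC1, 11.2 and 12.8 for ARRDC2, 13.2 and 32.0 for ARRDC3, 16.7 and 20.4 for MLXIP, 30.9 and 26.4 for MLX and 3.25 and 1.24 for MLXIPL.

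With DESeq2 size factors 0 inflammasome genes were lower, and with DESeq2 2 genes of the MLX and MAX network were higher and 2 kinases and promoter factors lower. Over the libraries left out, the counts ran as follows. Glucose genes that rose numbered 3 to 5, glucose genes that fell 8 to 12 and thioredoxin genes that fell 1 to 3. Inflammasome genes that fell numbered 0 to 1 and those that rose 0 to 1, ligases that rose 0 to 2, and other arrestins that fell 1 to 2. Cargo and vesicle genes that rose numbered 0 to 2, network partners that rose 1 to 2, and kinases and promoter factors that fell 1 to 2. The causes were not tested. TXNIP and ARRDC4 rested on 32 to 52 reads per control library, which limits the precision of their fold changes, and the glucose available to the cells was not among the measurements.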
